A study of Mus musculus with 3 samples.

Results

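The genes described here are 7 core genes of ribosome assembly in the nucleolus: Npm1, Ncl, Fbl, Nop56, Nop58, Dkc1 and Nolc1. They were taken by gene symbol from 26887 gene entries in the count files, and all 7 were counted in every library. RIA-seq (RNA interactome analysis and sequencing) pulls one RNA out of fixed cells with antisense oligonucleotides and sequences the RNA that comes along. The cells were E14 mouse embryonic stem (ES) cells of the 129/Ola strain, grown without feeder cells in serum and LIF. Fixation was in 1% glutaraldehyde (10 min), and after lysis and sonication the oligonucleotides were hybridized overnight at 37 °C. The oligonucleotides targeted Actb mRNA in the control (Actb RIA-seq), the nuclear long noncoding RNA Malat1 in Malat1 RIA-seq, and the transferrin receptor mRNA Tfrc in Tfrc RIA-seq. Below, the libraries are named by their target, and "Malat1 over Actb" is the Malat1 library set against the control. There was 1 library for each of the 3 conditions, so no difference below has a replicate check and no test between conditions was possible.

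Ribosomes are put together in the nucleolus, where RNA polymerase I makes the precursor ribosomal RNA and small nucleolar RNAs (snoRNAs) guide its modification. Box C/D snoRNAs carry fibrillarin (Fbl), Nop56 and Nop58 and guide methylation of ribose, and box H/ACA snoRNAs carry dyskerin (Dkc1) and guide pseudouridylation. Nucleophosmin (Npm1) and nucleolin (Ncl) are abundant nucleolar proteins that bind RNA and ribosomal proteins, and Nolc1 (Nopp140) is a chaperone of snoRNA particles. Many snoRNAs are cut out of the introns of genes that encode ribosomal and nucleolar proteins, and 4 of these 7 genes are such hosts. What the libraries count is the RNA of the 7 genes, not their proteins.

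The files held 10405209 counts for the Actb library, 10078439 for the Malat1 library and 14553941 for the Tfrc library. Each gene has up to 2 rows, one under its Ensembl ID and one marked Genome, and the Genome rows made up 5.25%, 19.0% and 15.1% of these totals. Lars2 alone took 32.0%, 17.0% and 22.2% of the counts. As counts per 1000000 counts of a library (CPM), Actb held 73038 in its own pull-down against 889 and 924 in the others. Malat1 held 10657 CPM in the Malat1 library, 1834 in the Actb library and 7041 in the Tfrc library. Tfrc held 117 CPM in the Tfrc library, 43.5 in the Actb library and 101 in the Malat1 library, so the Tfrc pull-down was set apart from the Malat1 pull-down by little in its own target. All 8 ES cell markers looked up were counted, at 1309 or more in each library, and the summed markers of fibroblasts, neural cells, endoderm and mesoderm each stayed at or below 29.8 CPM.

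A fold is the ratio of a gene's shares of 2 libraries, with a 95% counting interval. Intervals cover counting error only, since the labels name no molecular identifiers and amplified copies are not independent. Over all genes that reached 10 counts in both libraries, the median was not at a fold of 1. It was 1.82 for Malat1 over Actb (14572 genes, log2 0.86), 1.56 for Tfrc over Actb (14691 genes, log2 0.64) and 1.15 for Malat1 over Tfrc (16430 genes, log2 0.21). The folds of the single members over the control are therefore also given relative to the median gene. The libraries are pull-downs, so a fold compares shares of the recovered RNA and is not a measure of expression. As in any bulk sample, fewer cells with an RNA and less of it per cell cannot be told apart. Both comparisons with the Actb library use the same control library, so their values are set side by side and were not related to each other.

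Within 4 of the members, 12 snoRNA genes are annotated, and 5 of the 12 are shown. Shown are the 2 with counts under an Ensembl ID (Snora75 and SNORA51), and 1 box C/D gene with both of its boxes from each of Ncl, Nop56 and Nop58. All coordinates are NCBIM37 (mm9), and the sequences are of the snoRNA strand, 5′ to 3′. Capitals mark the C box (TGATGA) and D box (CTGA) of box C/D snoRNAs, or the ACA near the end of box H/ACA snoRNAs.
Snora75 (intron 12 of Ncl, chr1:88247744-88247876, minus strand): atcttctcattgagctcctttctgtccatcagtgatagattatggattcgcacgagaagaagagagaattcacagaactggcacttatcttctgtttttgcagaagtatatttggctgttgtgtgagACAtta
SNORD20 (intron 11 of Ncl, chr1:88248583-88248662, minus strand): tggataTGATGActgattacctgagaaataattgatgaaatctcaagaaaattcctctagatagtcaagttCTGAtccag
Snord110 (intron 3 of Nop56, chr2:130101242-130101309, plus strand): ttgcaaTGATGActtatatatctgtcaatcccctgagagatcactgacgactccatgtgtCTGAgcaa
SNORA51 (intron 5 of Nop56, chr2:130101973-130102105, plus strand): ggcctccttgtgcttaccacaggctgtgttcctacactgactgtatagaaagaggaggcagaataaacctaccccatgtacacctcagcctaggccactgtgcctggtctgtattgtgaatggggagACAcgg
SNORD11 (intron 8 of Nop58, chr1:59761102-59761182, plus strand): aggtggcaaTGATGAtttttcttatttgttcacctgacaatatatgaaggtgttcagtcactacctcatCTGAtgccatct

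All 12 lie in introns of the host's coding transcript, on the host's strand, with 3 in Ncl, 4 in Nop56, 4 in Nop58 and 1 in Dkc1. SNORA51, SNORD56 and Snord57 also fall inside exons of other Nop56 transcripts that keep an intron. The boxes were searched on the snoRNA strand, TGATGA in the first 20 nt, CTGA in the last 14 nt and ACA in the last 9 nt. Of the 9 box C/D genes, 5 had both boxes and 7 had the D box in these windows, against 69.4% and 89.3% of the 346 box C/D genes annotated in the genome. Snord70 and SNORD70, in Nop58, held a CTGA just outside the D box window, so their lack of a D box depends on the window. Of the 3 box H/ACA genes, 2 had the ACA, against 64.0% of 1031. Snora75 had 7, 16 and 14 counts in the Actb, Malat1 and Tfrc libraries, and SNORA51 had 2, 8 and 6, which cannot be told apart from counts of Nop56 transcripts that keep its intron. Snord82, in intron 5 of Ncl, had 1 Genome count in the Tfrc library, and the other 9 had none, which allows up to 3 counts each, or 0.288, 0.298 and 0.206 CPM. The hosts had 1143 or more counts in each library, so the values below are of the host transcripts. The 12 snoRNA genes are 68 to 133 nt long, and the recovery of such short RNA in these libraries was not tested.

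**Figure D1:**
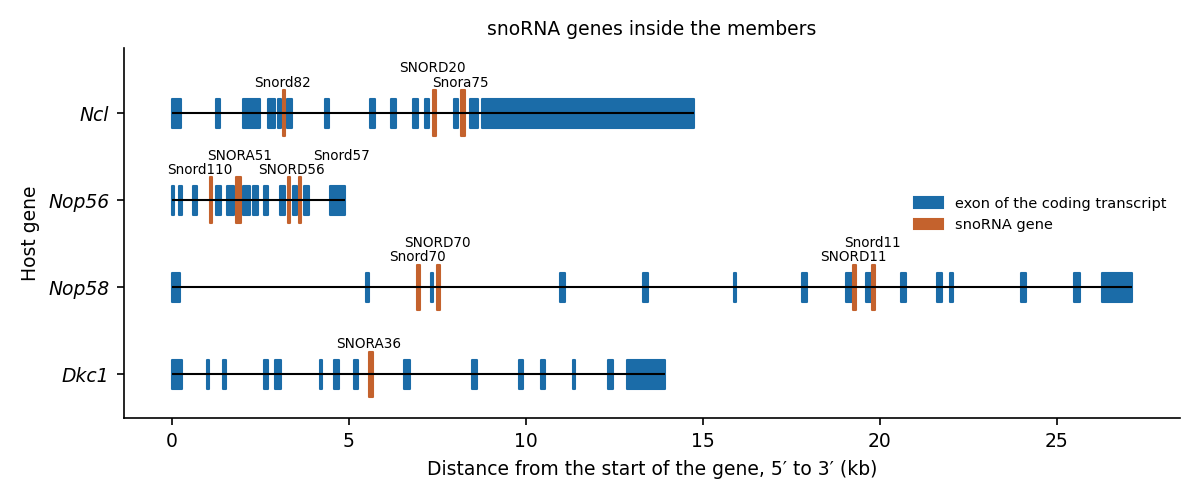
Map of the 4 host genes, drawn to scale as distance from the start of each gene in kb, with exons of the coding transcript in blue and the 12 snoRNA genes in orange. Ncl holds 3, Nop56 holds 4, Nop58 holds 4 and Dkc1 holds 1, all between exons of the coding transcript.

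Npm1 (ENSMUSG00000057113, chr11:33052287-33063206, minus strand), the nucleolar chaperone that shuttles between nucleolus and cytoplasm, was the most abundant member. It had 37757 counts in the Actb library, 64709 in the Malat1 library and 96562 in the Tfrc library, or 3629, 6421 and 6635 CPM. Both non-control libraries were thus above the control, with the Tfrc library slightly the higher. Its fold was 1.77 (1.75–1.79) in the Malat1 library and 1.83 (1.81–1.85) in the Tfrc library, both over the Actb library. Relative to the median gene these were 0.972 and 1.17, so the first turned below 1 under that scaling. Npm1 was the one member with a lower share in the Malat1 library than in the Tfrc library, at a fold of 0.968 (0.958–0.977). Among protein-coding genes ranked by Ensembl-ID counts per kb of exon, Npm1 stood 20th of 15748 in the Actb library and 16th in both of the others.

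Ncl (ENSMUSG00000026234, chr1:88241294-88256030, minus strand), nucleolin, which binds precursor ribosomal RNA, had the lowest fold of the members in the Tfrc library and the highest between the Malat1 and Tfrc libraries. It had 32683 counts in the Actb library, 44169 in the Malat1 library and 36204 in the Tfrc library, or 3141, 4383 and 2488 CPM. The Tfrc library was the lowest and the Malat1 library the highest. The fold was 1.40 (1.38–1.42) for Malat1 over Actb and 0.792 (0.780–0.804) for Tfrc over Actb, or 0.767 and 0.508 relative to the median gene. In the second comparison 4.23% of all genes had a lower fold than Ncl. Between the Malat1 library and the Tfrc library its fold was 1.76 (1.74–1.79), above 92.2% of genes. Ncl was the one member whose interval lay below 1 for Tfrc over Actb.

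Npm1 and Ncl together dominate the group. Npm1 supplied 48.6%, 53.2% and 65.4% of the summed counts of the 7 genes in the Actb, Malat1 and Tfrc libraries, and Ncl 42.0%, 36.3% and 24.5%. The 7 genes took 0.747% of the Actb library, 1.21% of the Malat1 library and 1.02% of the Tfrc library. The summed fold over the Actb library was 1.61 (1.60–1.63) in the Malat1 library and 1.36 (1.35–1.37) in the Tfrc library. Without Npm1 the Tfrc value fell below 1, to 0.915 (0.903–0.927), and without both Npm1 and Ncl it was 1.46 (1.42–1.50). Sums over these genes therefore mostly describe 2 transcripts, whose folds in the Tfrc library were 1.83 and 0.792.

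**Figure D2:**
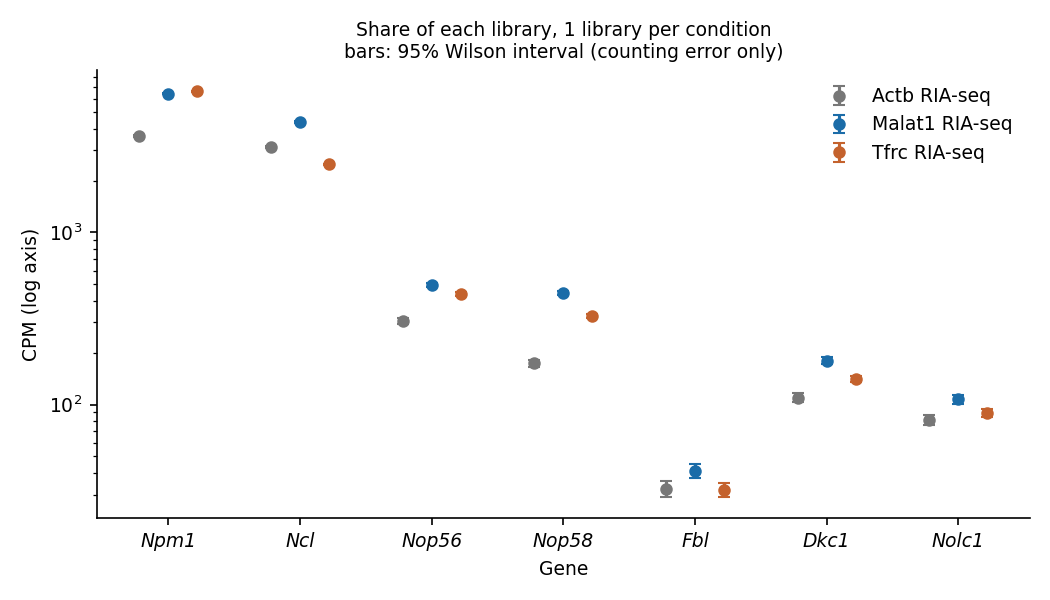
CPM (log axis) of each gene in the 3 libraries, with points for the libraries and bars for the 95% Wilson interval of counting error. Npm1 and Ncl sit near or above 2488 CPM, the other 5 genes at or below 493, and only Npm1 has its highest point in the Tfrc library.

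Of the genes of the box C/D core, Nop58 (ENSMUSG00000026020, chr1:59741853-59768968, plus strand) had the highest folds of all members. It had 1813, 4491 and 4780 counts in the Actb, Malat1 and Tfrc libraries, or 174, 446 and 328 CPM. The Malat1 library was the highest, and the intervals of the 3 libraries did not overlap. The fold over the Actb library was 2.56 (2.42–2.70) in the Malat1 library and 1.88 (1.79–1.99) in the Tfrc library, or 1.41 and 1.21 relative to the median gene. With both rows summed, Nop58 was the one member that stayed above the median gene in each of the 3 comparisons. Even so, 76.5% of all genes had a lower fold in the Malat1 library and 67.0% in the Tfrc library. In Ensembl-ID rows alone, Nop56 and Dkc1 also lay above the all-gene median in each of the 3. Nop56 had 1.61, 1.44 and 1.12 there, and Dkc1 1.64, 1.28 and 1.29, against medians of 1.41, 1.26 and 1.11.

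Nop56 (ENSMUSG00000027405, chr2:130100166-130105049, plus strand), the partner of Nop58 in the box C/D particle, had 3186, 4966 and 6384 counts, or 306, 493 and 439 CPM. Its order of libraries was that of Nop58, with the Malat1 library the highest and the Actb library the lowest. The folds were smaller, at 1.61 (1.54–1.68) in the Malat1 library and 1.43 (1.37–1.49) in the Tfrc library over the control, or 0.884 and 0.919 relative to the median gene. The intervals of Nop56 and Nop58 did not overlap in either comparison. The last 5 nt of Nop56 are shared with Idh3b on the other strand, and whether the counting used strand is not given in the sources used here.

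Fbl (ENSMUSG00000046865, chr7:28954765-28964288, plus strand), the methyltransferase of the box C/D particle, had the fewest counts, with 334, 415 and 462, or 32.1, 41.2 and 31.7 CPM. Its fold was 1.28 (1.11–1.48) for Malat1 over Actb. For Tfrc over Actb it was 0.989 (0.859–1.14), an interval that holds 1. Relative to the median gene the folds were 0.705 and 0.634. The values of Fbl are uncertain for a reason in its sequence. The pseudogene Gm5812 on chromosome 17 matched 99.8% of the Fbl transcript at 97.2% identity, and its Ensembl-ID counts of 318, 378 and 386 were almost those of Fbl itself, at 316, 374 and 377. Exons of Tulp4, on the same chromosome, matched 1060 nt at 96.9% and had 315, 486 and 616 counts. How reads that match several places were counted is not given in the sources used here.

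Dkc1 (ENSMUSG00000031403, chrX:72341193-72355116, plus strand), the pseudouridine synthase of box H/ACA particles and of telomerase, had 1143, 1811 and 2043 counts, or 110, 180 and 140 CPM. Its fold over the Actb library was 1.64 (1.52–1.76) in the Malat1 library and 1.28 (1.19–1.37) in the Tfrc library, or 0.899 and 0.820 relative to the median gene. The last 45 nt of the gene overlap Mpp1 on the other strand, which had 75, 126 and 147 Ensembl-ID counts.

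Nolc1 (ENSMUSG00000015176, chr19:46150353-46160018, plus strand), the snoRNA particle chaperone, had 850, 1084 and 1306 counts, or 81.7, 108 and 89.7 CPM. Its fold was 1.32 (1.20–1.44) in the Malat1 library and 1.10 (1.01–1.20) in the Tfrc library over the control, or 0.723 and 0.705 relative to the median gene. The Tfrc library lay between the other two, with a share interval that overlaps that of the Actb library.

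Set side by side, all 7 genes had a higher share in the Malat1 library than in the Actb library, each with an interval above 1, but 88.7% of all genes tested also had a fold above 1. Scaled to the median gene with both rows summed, Nop58 alone remained above 1. At a fold of 2 or more there was 1 of 7, Nop58, against 42.1% of all genes. The median fold of the 7 was 1.61 against 1.82 for all genes, and 6 of 7 lay below that median. No member had a fold below 1, against 11.3% of all genes.

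For Tfrc over Actb, 5 of 7 had a fold above 1 with the interval above 1, against 87.2% of all genes with a fold above 1. No member reached a fold of 2, against 28.6% of all genes. Ncl and Fbl had a fold below 1, as did 12.8% of all genes, and the interval of Fbl held 1. The median fold of the 7 was 1.28 against 1.56 for all genes, with Npm1 and Nop58 above that median.

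For Malat1 over Tfrc, which leaves the control out, 6 of 7 had a fold above 1, against 67.9% of all genes. The median was 1.28 against 1.15 for all genes, and 5 of 7 lay above the all-gene median. Besides Ncl at 1.76 and Npm1 at 0.968, the folds were 1.36 for Nop58 (1.30–1.41), 1.30 for Fbl (1.14–1.48), 1.28 for Dkc1 (1.20–1.36), 1.20 for Nolc1 (1.11–1.30) and 1.12 for Nop56 (1.08–1.17).

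**Figure D3:**
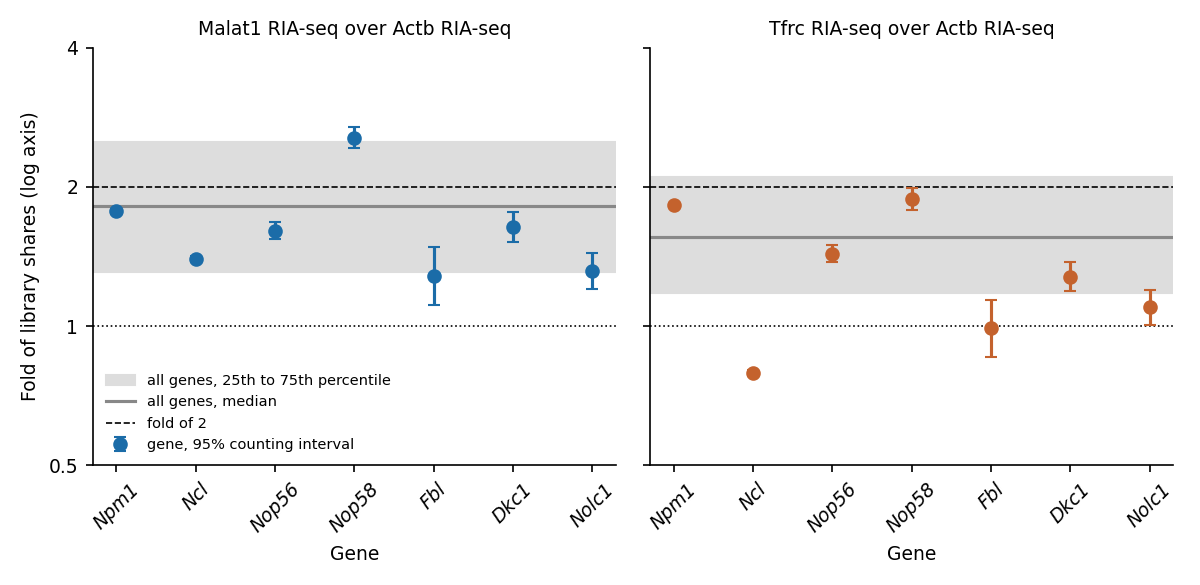
Fold of each gene's library share (log axis) over the Actb library, with points for the genes, bars for the 95% counting interval, a grey band for the 25th to 75th percentile of all genes and a grey line for their median. Nop58 at 2.56 is the one point above the dashed line at 2, and Ncl at 0.792 in the Tfrc library is the lowest.

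Because transcripts differ in length, levels of different genes were compared as Ensembl-ID CPM per kb of the annotated coding transcript. In the Actb library the order was Npm1 at 2207 (2185–2229), Ncl at 379 (375–383), Nop56 at 162 (157–168), Nop58 at 60.1 (57.2–63.1), Dkc1 at 38.0 (35.8–40.3), Fbl at 26.2 (23.4–29.2) and Nolc1 at 22.2 (20.8–23.8). The order of the first 5 was the same in the other 2 libraries. Fbl and Nolc1 had overlapping intervals in all 3 libraries and cannot be ordered, and they exchanged places in the Tfrc library. The annotated Ncl transcript of 8257 nt holds a coding sequence of 2124 nt, so its level per kb rests on a long untranslated end, and it would be higher on a shorter transcript. In the same unit, Nop56 stood at 162, 262 and 233 and Nop58 at 60.1, 149 and 109 in the Actb, Malat1 and Tfrc libraries.

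The Genome rows behaved differently from the Ensembl-ID rows. They held a small part of most members, but 10.8%, 13.8% and 13.8% of the Nop58 counts in the Actb, Malat1 and Tfrc libraries. For Fbl they held 5.39%, 9.88% and 18.4%, from 18, 41 and 85 counts. For Nolc1 they held 1.06%, 6.37% and 3.75%, from 9, 69 and 49 counts. In Npm1 and Ncl the Genome part was at most 1.34% and 0.920%, and in both it was lowest in the Actb library. Nop56 had 14, 15 and 6 Genome counts, or 0.439%, 0.302% and 0.0940%, and stood apart in that its part was lowest in the Tfrc library. The merged exons of its transcripts leave only 785 nt of intron, the least of the 7. Per kb of intron its Genome rows held 1.71, 1.90 and 0.525 CPM in the Actb, Malat1 and Tfrc libraries. Dkc1 stayed at 3.06%, 2.71% and 3.23%, with overlapping intervals. Against the 5.25%, 19.0% and 15.1% of all counts that lay in Genome rows, the members were lower except Nop58 and Fbl in the Actb library and Fbl in the Tfrc library. The interval of Fbl in the Actb library, 3.44% to 8.36%, holds 5.25%. Nop58 has the longest introns of the 7, at 24529 nt, but per kb of intron its Genome rows held 0.768, 2.50 and 1.85 CPM in the 3 libraries, where those of Npm1, with 8255 nt, held 3.04, 8.45 and 10.8.

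**Figure D4:**
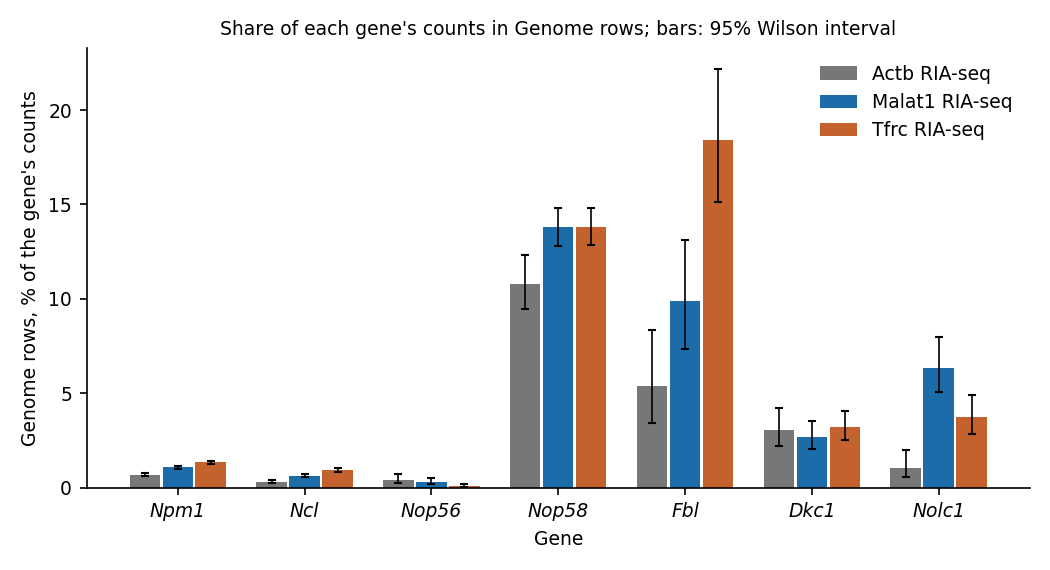
Percent of each gene's counts that lie in Genome rows, with bars for the 3 libraries and error bars for the 95% Wilson interval. Nop58 holds 10.8% to 13.8% in each library, Fbl reaches 18.4% in the Tfrc library, and Npm1, Ncl and Nop56 stay at or below 1.34%.

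The standing of the members against other genes depended on which rows were read. In Ensembl-ID rows alone, scaled to the same library totals, the median fold of the 7 for Malat1 over Actb was 1.61 against 1.41 for all genes, and 4 of 7 lay above the all-gene median. In summed rows 1 of 7 did. For Tfrc over Actb the Ensembl-ID medians were 1.28 and 1.26, with 4 of 7 above. In Genome rows alone, 6 members had at least 10 counts in both libraries for Malat1 over Actb. Their median fold was 2.57, against 3.60 for all genes, and none of the 6 lay above that. Nolc1, left out with 9 Genome counts in the Actb library, had a fold of 7.92 (3.95–15.9). For Tfrc over Actb the median Genome fold was 2.41 over 5 members, against 2.86 for all genes. Of the 5, 2 lay above, Npm1 at 3.55 (3.11–4.05) and Fbl at 3.38 (2.03–5.61). Left out there were Nolc1 at 3.89 (1.91–7.92) and Nop56 at 0.306 (0.118–0.797), which had 6 Genome counts in the Tfrc library. For Malat1 over Actb the Ensembl-ID fold of Nop58 was 2.47 (2.33–2.62), above the all-gene median of 1.41. Its Genome fold was 3.26 (2.78–3.83), below the all-gene median of 3.60, and it was 0.900 when scaled to the Genome total. What the authors counted into Genome rows is not given in the sources used here.

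The wider pathway was read from lists of 127 other ribosome assembly genes, of which 124 were in the files, each with at least 10 counts in every library. For Malat1 over Actb, 113 of 124 (91.1%) had a fold above 1, against 88.7% of all genes, 25 (20.2%) had a fold of 2 or more, against 42.1%, and the median was 1.48. For Tfrc over Actb, 103 (83.1%) had a fold above 1, against 87.2% of all genes, 3 (2.42%) had a fold of 2 or more, against 28.6%, and the median was 1.24. Both medians were below those of all genes, at 1.82 and 1.56, as those of the 7 members were. Relative to the median gene, 33 and 18 of the 124 lay above 1. In Ensembl-ID rows alone the medians of the 124 were 1.27 and 1.13, again below those of all genes at 1.41 and 1.26. Those of the 7 members were 1.61 and 1.28, the first above that of all genes and the second close to it.

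The counts at a fold of 2 or more in each role list below stand against 42.1% of all genes for Malat1 over Actb and 28.6% for Tfrc over Actb. Among the other box C/D factors, 1 of 8 reached a fold of 2 for Malat1 over Actb and none in the Tfrc library, with medians of 1.28 and 1.19. The one was Znhit6, an assembly factor of the particle, at 2.55 (2.28–2.86), a value close to that of Nop58, and at 1.54 (1.37–1.73) in the Tfrc library. Nhp2l1, which binds the core of the snoRNA, had the most counts of the list, with 1276, 1694 and 1619, and folds of 1.37 (1.27–1.47) and 0.907 (0.843–0.976). The assembly ATPases Ruvbl1 and Ruvbl2 had the lowest folds, at 0.870 (0.795–0.953) for Ruvbl1 in the Tfrc library and 0.898 (0.830–0.971) for Ruvbl2 in the Malat1 library.

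Among the other box H/ACA factors, 1 of 5 reached a fold of 2 in each comparison. Shq1, the chaperone that holds dyskerin before it enters a particle, had 163, 546 and 600 counts and folds of 3.46 (2.90–4.12) and 2.63 (2.21–3.13), well above those of Dkc1. Nop10, a small core protein of the particle, was below 1 in both, at 0.820 (0.711–0.945) and 0.728 (0.637–0.832). Gar1, another core protein, had folds of 1.59 (1.41–1.79) and 1.44 (1.28–1.62), whose intervals overlap those of Dkc1. Of the nucleolar chaperones, Tcof1 had 1.34 (1.25–1.45) and 1.36 (1.27–1.46), and Npm3, a relative of Npm1, had 1.97 (1.57–2.47) and 1.35 (1.08–1.70).

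The small subunit processome, which processes the 5′ part of the ribosomal RNA precursor, had 7 of 38 genes (18.4%, against 42.1% of all genes) at a fold of 2 or more for Malat1 over Actb and none (against 28.6%) in the Tfrc library, with medians of 1.38 and 1.20. Its highest were Utp11 (listed as Utp11l) at 2.83 (2.62–3.07) in the Malat1 library and Utp14a at 1.94 (1.72–2.17) in the Tfrc library, and its lowest were Imp4 at 0.702 (0.623–0.791) and Rcl1 at 0.755 (0.683–0.834) in the same order. Utp20, with the most counts, had 2.03 (1.89–2.18) and 1.28 (1.19–1.37). Large subunit assembly factors had 12 of 44 (27.3%, against 42.1% of all genes) at 2 or more in the Malat1 library and 1 (2.27%, against 28.6%) in the Tfrc library, with medians of 1.61 and 1.23. The one was Nvl, an ATPase that releases assembly factors, at 2.63 (2.34–2.97) and 2.05 (1.82–2.30). Mdn1, the giant ATPase of this step, had the most counts of the list and folds of 2.00 (1.91–2.11) and 1.44 (1.37–1.52), and Rpf1 was lowest at 0.748 (0.628–0.890) and 0.682 (0.580–0.801).

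RNA polymerase I and its factors had 3 of 14 genes (21.4%, against 42.1% of all genes) at 2 or more in the Malat1 library and 1 (7.14%, against 28.6%) in the Tfrc library, with medians of 1.39 and 1.23. Taf1d, a subunit of the factor that selects the ribosomal RNA promoter, had 1277, 4072 and 5717 counts and folds of 3.29 (3.09–3.51) and 3.20 (3.01–3.40), the highest of the 124 in the Tfrc library. The polymerase subunits Twistnb, at 0.739 (0.619–0.883) in the Malat1 library, and Znrd1, at 0.710 (0.636–0.794) in the Tfrc library, were lowest. The nuclear exosome, which trims ribosomal RNA ends, had 1 of 12 at 2 or more in the Malat1 library and none in the Tfrc library, with medians of 1.37 and 1.29. The one was Exosc2 at 3.00 (2.77–3.25), against 1.34 (1.23–1.46) in the Tfrc library. The lowest in the Malat1 library was Exosc3 at 1.05 (0.893–1.24). In the Tfrc library Exosc7 was highest at 1.52 (1.28–1.81) and Mphosph6 lowest at 0.895 (0.787–1.02).

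**Figure D5:**
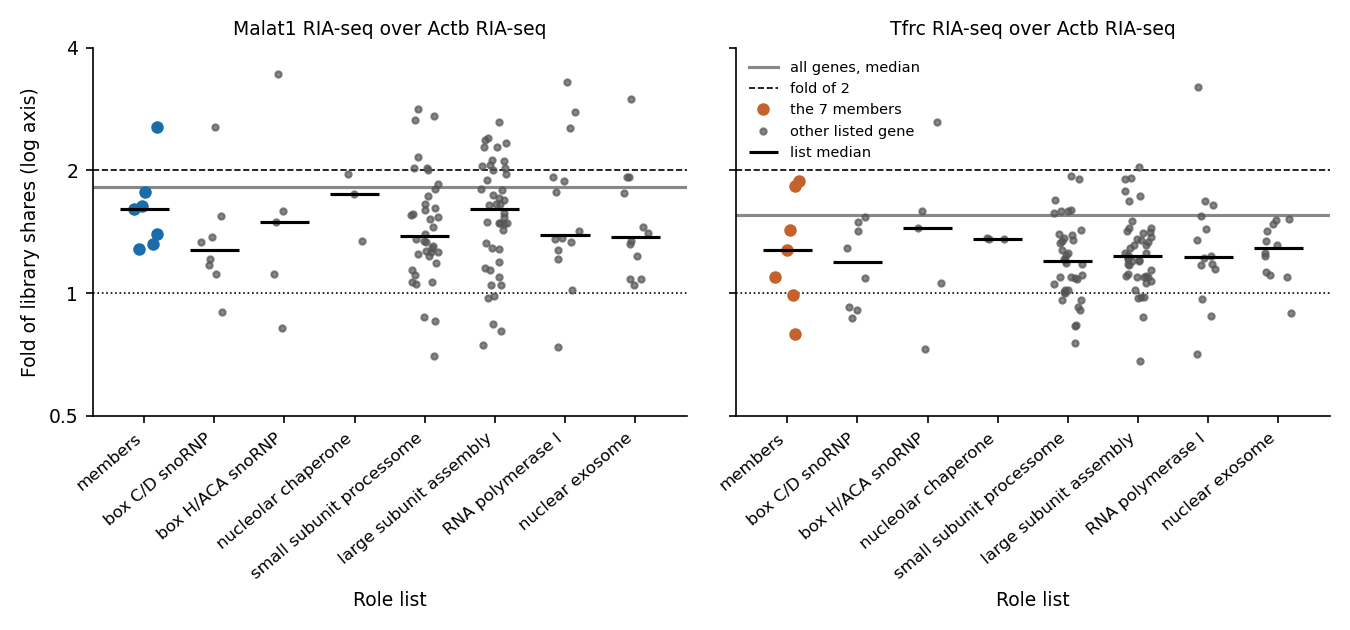
Fold of library share over the Actb library (log axis) for the 7 genes in colour and for 124 other ribosome assembly genes in grey, grouped by role, with a black bar for each list's median and a grey line for the median of all genes. The median of every list lies between 1 and the all-gene line, and points at or above the dashed line at 2 are 25 of the 124 grey ones in the Malat1 library and 3 in the Tfrc library.

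The ribosomal protein genes, whose products these factors assemble, were added after the files had been seen. The median fold of 76 of them was 1.02 for Malat1 over Actb and 0.984 in the Tfrc library. Of the 76, 1 and 0 reached a fold of 2, against 42.1% and 28.6% of all genes. Both medians were below those of the 7 members, at 1.61 and 1.28, and the difference was not tested. The genes whose folds over the Actb library were nearest to those of the summed members, among 860 with at least 1000 counts in each library, were Celf1, Abcf1 and Eif4e2. They lay 0.033, 0.043 and 0.050 away on the log2 scale of the 2 folds, and 20 of the 860 lay within 0.1. The sum mostly describes Npm1 and Ncl, at 1.83 and 0.792 for Tfrc over Actb. Nearness to the sum is thus not nearness to each member.

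Other copies of the members bear on their counts. Annotated exons that matched a member's transcript at 90% identity or more over at least 200 nt were found for Npm1 in 6 genes, for Fbl and Nop56 in 2 each and for Dkc1 in 1, and for Ncl, Nop58 and Nolc1 in none. The 6 matches of Npm1, of which 5 are pseudogenes, held 3017, 6005 and 7173 Ensembl-ID counts, or 8.05%, 9.38% and 7.53% of those of Npm1. Most belonged to Gm14681 on chromosome X, with 2166, 4481 and 5515. The pseudogenes Gm9432 and Gm1947 of Nop56 together held 51, 163 and 101, at most 3.29% of Nop56, and Gm13776 of Dkc1 held 0, 15 and 5. Fbl is the one member whose matches together held more counts than the gene, and its folds carry that uncertainty. The Tulp4 counts in that sum are of the gene as a whole, not of the matching stretch. Gm5812 alone held 318, 378 and 386 Ensembl-ID counts, nearly the 316, 374 and 377 of Fbl.

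The transcripts were also searched for runs of letters shared with the 3 targets. Ncl held 51 nt complementary to Malat1 at nucleotides 7725 to 7775 of its transcript, in the untranslated end, and 0.343% of 22754 transcripts had a run as long. Dkc1 and Ncl shared 34 and 31 nt with Malat1 on the same strand, as long as in 1.01% and 1.23% of transcripts. Most of each is the reverse complement of part of the 51 nt run, so these runs hold much the same sequence. Transcripts were not masked for repeats, and the shares were not adjusted for transcript length, which was 8257 nt for Ncl. With Actb, Ncl shared 20 nt on the same strand (2.16%) and Dkc1 had 18 nt in complement (2.59%). The first is a run of t alone, and the second holds only a and c. Ncl shared 15 nt with Tfrc on the same strand (2.87%), and Npm1 shared 16 nt with Malat1 on the same strand (4.96%). The longest runs of Nop58 with Malat1 were 14 nt on the same strand and 12 nt in complement, which 18.7% and 73.5% of transcripts matched or exceeded. The sequences of the capture oligonucleotides were not used here, and the part of shared sequence in any fold was not tested.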

How the data were processed

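RIA-seq was measured in 3 libraries of mouse ES cells, 1 per pull-down. The deposited files hold whole-number read counts per gene, in a row under an Ensembl ID and a row marked Genome. The submitters' processing notes name Bowtie 0.12.7 and the builds mm9 and NCBIM37, with no role. The counting rule, strand and treatment of multiple matches are not given in the sources used here. Per library, both rows were summed by symbol and chromosome and divided by the library total (10078439 to 14553941 counts), with Wilson 95% intervals. Folds are ratios of shares with a 95% interval on the log scale, read over genes that reached 10 counts in both libraries, with a fold of 2 as the call. Exons and sequences came from GENCODE and the NCBIM37 genome, where 98.6% of IDs matched, and copies from BLAST+ 2.17.0 (Python 3.11.15, scipy 1.17.1). The fold functions were tested on simulated data. Members and lists were chosen with earlier results of these data known. Named were all members, in each role list the gene with the most counts and the highest and lowest fold in each comparison with Actb RIA-seq, the 3 genes nearest in pattern and all snoRNA genes inside members. Copies, the ribosomal proteins and the leaving out of Fbl were added after the data were seen. Scaling, pseudocount, row kind, minimum count and the call were varied.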

Additional observations from a re-analysis of the deposited data

How the results depend on the processing

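Leaving out replicates was not possible with 1 library per condition. No paired analysis was possible because the conditions share no second replicate number. The direction of the medians depended on the scaling (of the third only with Genome counts), and the cause was not tested beyond these settings. Values are given for Malat1 over Actb, Tfrc over Actb and Malat1 over Tfrc RIA-seq in that order, where the reported medians were 1.61, 1.28 and 1.28. With the median gene at 1 they were 0.884, 0.820 and 1.11, with the 75th percentile of counts 0.886, 0.795 and 1.13, and with totals without the 3 targets and the 10 genes with the most counts 1.01, 0.910 and 1.12. Genome counts gave 2.78 and 2.41 in the first 2 comparisons when scaled to the summed total, and 0.768, 0.839 and 0.980 when scaled to the Genome total. Ensembl-ID counts scaled to their own total gave 1.89 and 1.42 in the first 2. The fold of the summed counts moved the third to 1.19. The count of members at a fold of 2 or more was reported as 1 and 0. In the first comparison it was 0 under each of the 3 other scalings, for which no share of all genes was computed. With Genome counts on the summed total it was 5 and 5. Both include Nolc1, which had 9 Genome counts in the Actb library, under the minimum of 10. With that minimum kept it was 4 of 6 and 4 of 5, beside 88.6% and 79.6% of all genes. With Ensembl-ID counts on their own total it was 2 and 2, for which no share of all genes was computed. Calling a fold above 1 with a Benjamini-Hochberg adjusted chi-square p under 0.05, which compares 2 libraries and not conditions, gave 7 and 5 members, beside 73.9% and 68.0% of all genes. A minimum of 50 or 1 counts set the share of all genes at 2 or more to 37.6% or 46.6%, and to 20.8% or 36.3%. A pseudocount of 1, Ensembl-ID counts on the summed total and leaving out Fbl moved no median beyond the counting interval of the middle member. No interval of the median itself was computed.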
